A study of Mus musculus with 5 samples.

Results

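The unfolded protein response and the amino acid response were described through 40 genes, 22 of the endoplasmic reticulum (ER) and 18 of amino acid stress, among 18193 genes measured in CD4+ T cells of mice. The ER genes were the sensors, chaperones, disulfide isomerases and degradation factors of that compartment. The amino acid genes were ATF4, its partner factors and targets that make, carry or save amino acids. Genes were chosen by name, with earlier results of these data known, so their counts and medians as a set are descriptions and not tests. Each was read from its brightest probe set by mean signal, of those that carry its symbol alone. Of the 5 arrays in that mean, 4 were of colonic T cells, so the choice leans toward probe sets that are bright in those cells. All 40 genes were measured and none was lost to a filter.

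CXCR6+ T cells (n = 2) and CXCR6- T cells (n = 2), 1 array each, were sorted as CD3+CD4+ cells from the colonic lamina propria (LP) of Rag1-/- mice with transfer colitis, in which naive T cells of BALB/c background expand without other lymphocytes of the host. The labels call these subsets CXCR6 Hi and CXCR6 Lo. They were set against CD3+CD4+CD45RBhigh naive T cells (n = 1 array), for which the labels name the spleen in one field and the LP of healthy mice in another, and which the methods place in the spleen. Mice were 8 to 12 weeks old, and the sources give both 6 and 8 weeks as the time after transfer. How many mice gave each RNA sample is not given in the sources used here, so p-values rest only on how far these arrays spread, which may be technical.

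When unfolded proteins build up in the ER, the sensors IRE1α (Ern1), PERK (Eif2ak3) and ATF6 are released from the chaperone BiP (Hspa5). IRE1α splices the mRNA of Xbp1, and XBP1 and ATF6 then drive genes of folding and degradation. PERK phosphorylates eIF2α, as GCN2 does when amino acids run short, and translation of ATF4 rises while most other translation falls. Activated T cells depend on amino acid uptake, and cells that secrete cytokines fold many proteins in the ER. The arrays measured total mRNA of each gene, and neither splicing of Xbp1, nor phosphorylation, nor the ATF4 protein was measured here.

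Promoter sequences from RefSeq (GRCm38.p6, 250 bases before to 50 bases after each start) matched 35 of the 40 genes. They were searched on both strands for the ER stress element, CCAAT and CCACG with 9 bases between them (ERSE), for ATTGG and CCACG with 1 base between them (ERSE-II), for the core TGACGTGG of the unfolded protein response element, and for the ATF4 and C/EBP element TGATGNAA (CARE). The ERSE was found in 8 of 19 ER genes and 0 of 16 amino acid genes, against 0.119% of 32851 promoter windows. These 8 were Hspa5, Pdia6, Calr, Canx, Hsp90b1, Creld2, Syvn1 and Dnajc3. ERSE-II was found in Herpud1 and Dnajb11, against 0.0365% of windows, and the core of the unfolded protein response element in 0 of the 35 genes, against 0.676%. The CARE was found in Asns, Chac1, Slc7a11 and Trib3 and in 1 ER gene, Herpud1, against 3.97% of windows. No match of one element overlapped a match of another. The stretches below show both classes of element, in genes that were higher, lower or not called in LP T cells. They are written 5′ to 3′ on the strand of the gene, with the element in capitals on either strand. A match of letters is a description of the sequence and not a measured binding site.
Hspa5 (chr2:34771985-34772083, + strand, ERSE): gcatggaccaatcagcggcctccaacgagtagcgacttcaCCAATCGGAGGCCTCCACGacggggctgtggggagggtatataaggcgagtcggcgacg
Pdia6 (chr12:17266451-17266549, + strand, ERSE): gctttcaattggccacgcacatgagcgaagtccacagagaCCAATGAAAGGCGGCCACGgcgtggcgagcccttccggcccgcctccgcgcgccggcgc
Canx (chr11:50325760-50325858, - strand, ERSE): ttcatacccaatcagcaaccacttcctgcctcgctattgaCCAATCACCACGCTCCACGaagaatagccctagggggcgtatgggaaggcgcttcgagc
Dnajc3 (chr14:118937787-118937885, + strand, ERSE): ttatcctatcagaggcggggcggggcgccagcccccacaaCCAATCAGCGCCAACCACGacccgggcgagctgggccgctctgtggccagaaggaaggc
Herpud1 (chr8:94386337-94386427, + strand, ERSE-II): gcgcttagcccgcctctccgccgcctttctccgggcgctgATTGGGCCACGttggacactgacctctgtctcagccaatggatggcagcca
Asns (chr6:7693210-7693272, - strand, CARE): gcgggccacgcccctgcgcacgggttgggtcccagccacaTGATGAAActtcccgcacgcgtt
Slc7a11 (chr3:50443614-50443719, - strand, 2 CARE): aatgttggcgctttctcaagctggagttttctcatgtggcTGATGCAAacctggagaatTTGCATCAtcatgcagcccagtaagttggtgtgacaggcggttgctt

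Signals are linear values, and the median of each array is 1. They were compared on the log2 scale with limma, with a spread shared by the 3 groups, and p-values were adjusted over all 18193 genes by the Benjamini-Hochberg method with a threshold of 0.05. The naive array has no replicate and was assumed to vary like the LP arrays. Below, "rose" and "fell" are used of LP T cells (both subsets averaged) relative to naive T cells, and only for genes that passed. Errors are standard errors of the log2 difference.

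Ern1, a sensor of the ER, had the largest difference of the 40 genes between LP and naive T cells, and Asns, of amino acid synthesis, the next. Of the 22 ER genes, 7 rose, 5 fell and 10 did not pass, while 15.1% of all genes rose and 18.8% fell. The shares of ER genes were 31.8% and 22.7%, and their median log2 difference was 0.97, beside -0.136 over all genes. Of the 18 amino acid genes, 3 rose, 4 fell and 11 did not pass (16.7% and 22.2%), and their median was 0.04. All 4 LP arrays lay above the naive array in 15 ER genes and 8 amino acid genes, against 35% of all genes. They lay below it in 6 and 8, against 40.9%. Among all 40 genes, 10 rose and 9 fell, and 33.9% of all genes passed in either direction. In RNA of sorted bulk cells, fewer cells that express a gene and less RNA per cell cannot be told apart.

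**Figure D1:**
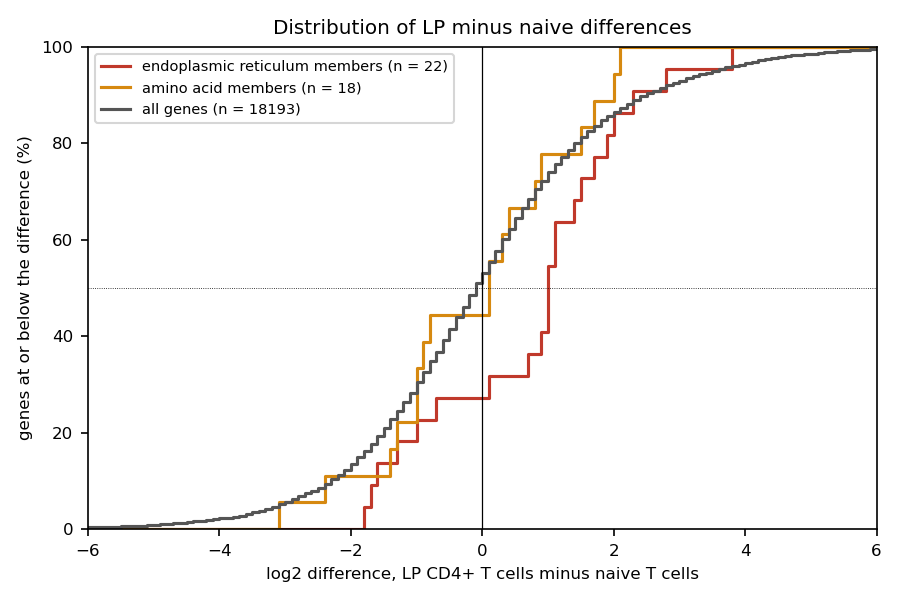
The plot gives the percentage of genes (vertical axis) at or below each log2 difference between LP CD4+ T cells and naive T cells (horizontal axis) for the 22 ER genes, the 18 amino acid genes and all 18193 genes. The ER curve lies to the right of that of all genes around its median of 0.97, while the amino acid curve crosses it near 0.

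Of the 4 sensors and transcription factors of the ER response, 3 rose and Atf6 did not pass. Ern1, which encodes the kinase and nuclease IRE1α, had signals of 133 and 159 in CXCR6+ T cells, 80.8 and 74.99 in CXCR6- T cells and 7.81 in naive T cells. Every LP array was thus above the naive array, and Ern1 rose by 3.77 (SE 0.26, adjusted p = 0.0119). Its other probe sets, of those averaging 1 or more, pointed the same way, with log2 differences of 6.69, 4.10 and 3.83. These rested on low naive signals of 0.457, 0.262 and 0.206. Xbp1, the transcription factor whose mRNA IRE1α splices, had signals of 223 and 238 in CXCR6+ T cells, 170 and 136 in CXCR6- T cells and 28.4 in naive T cells. Xbp1 rose by 2.72 (SE 0.27, adjusted p = 0.0141). Its probe sets did not all move one way, since 2 others gave 2.28 and 0.92 while 1 dimmer probe set gave -3.12. That probe set had 25.8 in naive T cells and 2.40 to 3.38 in LP T cells. Averaged over its probe sets, Xbp1 had 0.70, which did not pass. Eif2ak3, which encodes PERK, had 37.2 and 36.3 in CXCR6+ T cells, 27.3 and 27.4 in CXCR6- T cells and 6.87 in naive T cells. It rose by 2.21 (SE 0.24, adjusted p = 0.0146). A second probe set, also dim with a mean signal of 1.3 and a naive signal of 0.19, gave 3.02. Another, under 1 on every array, gave -2.79. The mean of its probe sets gave 0.81, which did not pass. Atf6, the remaining sensor, had low signals of 5.99 and 6.81 in CXCR6+ T cells, 5.74 and 3.15 in CXCR6- T cells and 1.92 in naive T cells. Its log2 difference of 1.44 did not pass (SE 0.43, adjusted p = 0.0776), and its other probe sets gave -0.79 and -1.63. Taken as a sum, the signals of the 4 genes came to 399 and 440 in CXCR6+ T cells, 284 and 241 in CXCR6- T cells and 45.0 in naive T cells.

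**Figure D2:**
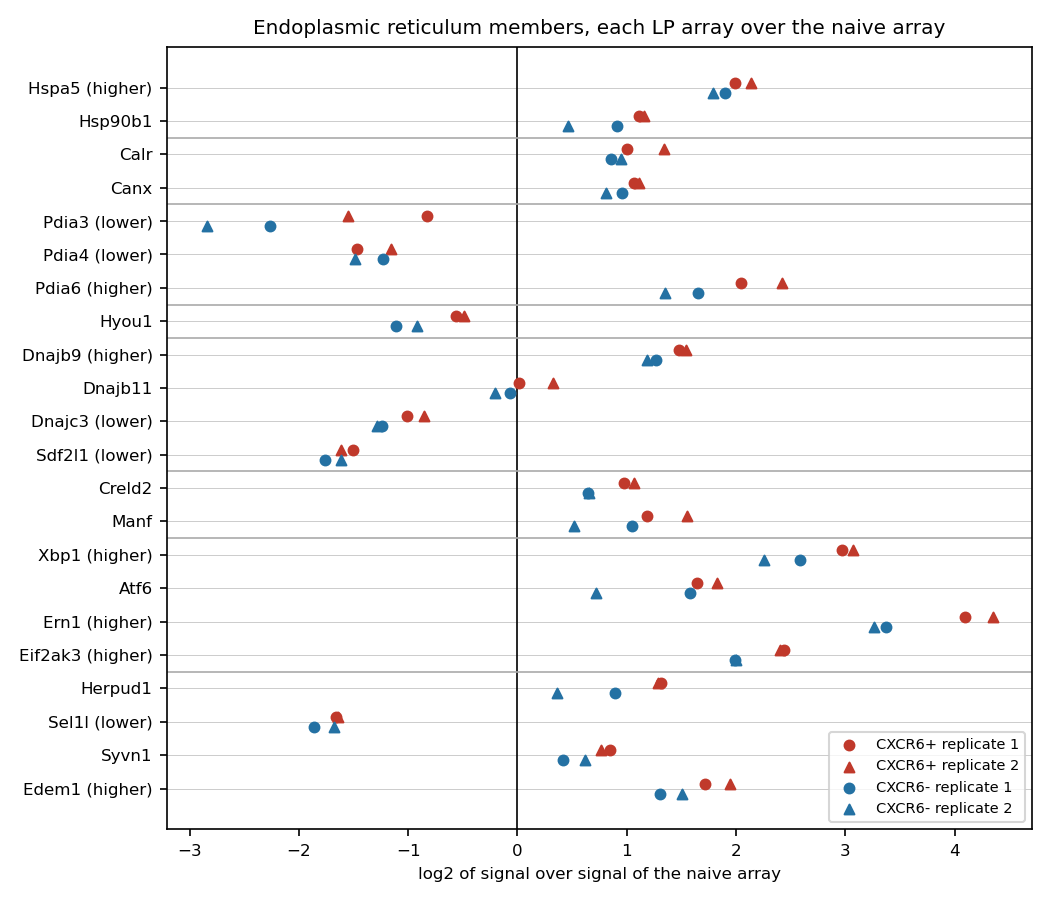
Each point is the log2 of the signal of an ER gene on an LP array over its signal on the naive array, with CXCR6+ arrays in red above CXCR6- arrays in blue and symbols for the replicate. Genes are grouped by role, those that passed carry "higher" or "lower", and the points of Ern1 and Xbp1 lie farthest to the right.

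Among the soluble chaperones of the ER lumen, Hspa5 rose and Hsp90b1 and Hyou1 did not pass. Hspa5, the HSP70 chaperone BiP that binds unfolded chains and the sensors, had signals of 316 and 351 in CXCR6+ T cells, 297 and 275 in CXCR6- T cells and 79.7 in naive T cells. All LP arrays lay above the naive array, and Hspa5 rose by 1.95 (SE 0.25, adjusted p = 0.0170). Its second-brightest probe set, with a mean signal of 101, was near level at 0.17. Another gave 5.27, with a signal of 0.621 in naive T cells. Hsp90b1, the ER form of HSP90, had signals of 148 and 153 in CXCR6+ T cells, 129 and 94.4 in CXCR6- T cells and 68.6 in naive T cells, a log2 difference of 0.91 (SE 0.30, adjusted p = 0.0929). Hyou1, an HSP110 protein that exchanges the nucleotide of BiP, had lower signals in LP than in naive T cells on all arrays, with a log2 difference of -0.77 (adjusted p = 0.0899) and -2.10 by another probe set. The lectin chaperones, which hold glycoproteins while they fold, did not pass either. Calr had 161 and 203 in CXCR6+ T cells, 145 and 155 in CXCR6- T cells and 80.2 in naive T cells (log2 difference 1.04, adjusted p = 0.0607), but its other probe sets gave -0.36 and -0.80. Canx had 210 and 217 in CXCR6+ T cells, 195 and 176 in CXCR6- T cells and 100.5 in naive T cells (log2 difference 0.98, adjusted p = 0.0523), and its others gave -0.09 and -1.002. The direction of Calr and Canx thus depended on the probe set read.

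The disulfide isomerases, which form and shuffle disulfide bonds, split. Pdia6 rose by 1.87 (SE 0.31, adjusted p = 0.0248), with signals of 63.8 and 82.8 in CXCR6+ T cells, 48.5 and 39.4 in CXCR6- T cells and 15.4 in naive T cells. Pdia3, which works with the lectin chaperones, fell by 1.87 (SE 0.45, adjusted p = 0.0494), with 30.6 and 18.6 in CXCR6+ T cells, 11.4 and 7.58 in CXCR6- T cells and 54.5 in naive T cells. Pdia4 fell by 1.34 (SE 0.29, adjusted p = 0.0401) with signals as low as 2.16 and 2.67 in CXCR6+ T cells, 2.55 and 2.13 in CXCR6- T cells and 5.97 in naive T cells. All LP arrays lay on the same side of the naive array for each of the 3 genes. Pdia4 turned to 0.26 when its probe sets were averaged, and the other one had signals under 1 on every array.

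The J-domain co-chaperones that work with BiP also went both ways. Dnajb9 (ERdj4), which keeps IRE1α in check, rose by 1.37 (SE 0.24, adjusted p = 0.0270), with 113 and 118 in CXCR6+ T cells, 97.5 and 92.1 in CXCR6- T cells and 40.5 in naive T cells. Dnajc3, also known as P58IPK, fell by 1.10 (SE 0.24, adjusted p = 0.0425), with 28.9 and 32.1 in CXCR6+ T cells, 24.6 and 23.8 in CXCR6- T cells and 58.1 in naive T cells. Other probe sets of Dnajc3 lay between -0.07 and -3.74. Sdf2l1, an ER protein bound to J-domain co-chaperones, fell by 1.62 (SE 0.25, adjusted p = 0.0220), with 3.32 and 3.07 in CXCR6+ T cells, 2.77 and 3.07 in CXCR6- T cells and 9.39 in naive T cells. Dnajb11 (ERdj3) was nearly level at 0.02 (SE 0.27, adjusted p = 0.968), with 27.6 and 34.2 in CXCR6+ T cells, 26.0 and 23.6 in CXCR6- T cells and 27.2 in naive T cells. The ER proteins Creld2 and Manf, which are also secreted, had log2 differences of 0.84 (adjusted p = 0.0693) and 1.08 (adjusted p = 0.0938) and did not pass, although all LP arrays exceeded the naive array for both.

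ER-associated degradation (ERAD) moves misfolded proteins to the cytosol for the proteasome. Edem1, a lectin that takes misfolded glycoproteins out of the folding cycle, rose by 1.61 (SE 0.27, adjusted p = 0.0247), with 62.0 and 72.4 in CXCR6+ T cells, 46.5 and 53.4 in CXCR6- T cells and 18.9 in naive T cells. Sel1l, the adaptor of the ubiquitin ligase HRD1, fell by 1.71 (SE 0.25, adjusted p = 0.0203), with 11.6 and 11.7 in CXCR6+ T cells, 10.1 and 11.4 in CXCR6- T cells and 36.6 in naive T cells. A dim probe set of Sel1l gave 1.01. Syvn1, the HRD1 ligase itself, had a log2 difference of 0.66 (adjusted p = 0.122), and Herpud1, which gathers the complex, of 0.96 (adjusted p = 0.0952). An adaptor and its ligase thus had differences of opposite sign.

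Of the 8 genes with an ERSE, 2 rose (Hspa5 and Pdia6), 1 fell (Dnajc3) and 5 did not pass. Of all genes, 15.1% rose and 18.8% fell. A log2 difference above 0 was seen in 7 of the 8 and in 16 of all 22 ER genes. The share of all genes at or below 0 was 0.532. Neither gene with an ERSE-II passed. The 3 called sensors and factors, Ern1, Xbp1 and Eif2ak3, had none of these 3 ER elements in the window searched.

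Among the amino acid genes, Asns fell more than any other. Asns, which encodes asparagine synthetase, had signals of 3.93 and 5.47 in CXCR6+ T cells, 5.199 and 5.42 in CXCR6- T cells and 44.0 in naive T cells. It fell by 3.15 (SE 0.31, adjusted p = 0.0135), and a second probe set gave -3.48. Of the serine pathway, Phgdh passed and Psat1 did not. Phgdh, its first enzyme, fell by 1.49 (SE 0.29, adjusted p = 0.0342), with 10.1 and 13.2 in CXCR6+ T cells, 10.6 and 12.3 in CXCR6- T cells and 32.2 in naive T cells. Other probe sets of Phgdh gave 1.79, -0.04 and 0.52, so its direction rested on the probe set read, and the mean of its probe sets gave 0.20. Psat1, the next enzyme, had 14.4 and 23.9 in CXCR6+ T cells, 21.2 and 20.05 in CXCR6- T cells and 40.6 in naive T cells, a log2 difference of -1.06, short of passing (adjusted p = 0.113), with -2.16 by its other probe set. Of the mitochondrial one-carbon enzymes, Shmt2 had a log2 difference of -0.97 (adjusted p = 0.0537) and the same sign on 3 other probe sets. Mthfd2 had 36.0 and 44.6 in CXCR6+ T cells, 36.3 and 30.0 in CXCR6- T cells and 36.4 in naive T cells, a difference of 0.00, while its second probe set gave 1.57.

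The amino acid transporters went both ways. Slc7a5 (LAT1), the large neutral amino acid carrier, fell by 2.44 (SE 0.34, adjusted p = 0.0195), with 5.78 and 4.37 in CXCR6+ T cells, 4.44 and 6.07 in CXCR6- T cells and 27.8 in naive T cells. Its heavy chain partner Slc3a2 (CD98) had 71.6 and 75.1 in CXCR6+ T cells, 51.4 and 49.5 in CXCR6- T cells and 36.6 in naive T cells, a log2 difference of 0.73, short of passing (adjusted p = 0.0892). Light and heavy chain thus lay on opposite sides of the naive array. Slc7a11 (xCT), the cystine and glutamate exchanger that pairs with the same heavy chain, rose by 2.06 (SE 0.35, adjusted p = 0.0262) at signals near the array median, 1.39 and 0.979 in CXCR6+ T cells, 1.11 and 1.46 in CXCR6- T cells and 0.293 in naive T cells. Slc1a5 (ASCT2), a glutamine carrier, had 12.4 and 18.4 in CXCR6+ T cells, 12.5 and 10.99 in CXCR6- T cells and 12.6 in naive T cells, a difference of 0.08 (adjusted p = 0.869), and 2.32 by a dim second probe set.

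**Figure D3:**
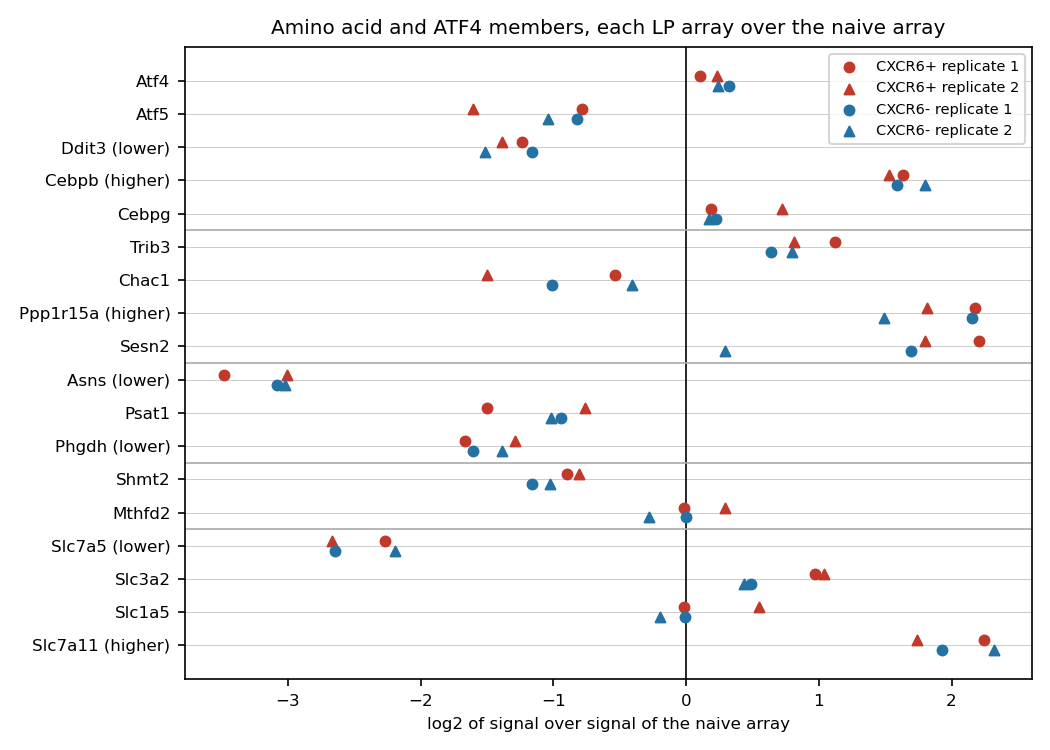
Each point is the log2 of the signal of an amino acid gene on an LP array over its signal on the naive array, with CXCR6+ arrays in red above CXCR6- arrays in blue. Genes are grouped by role, Asns and Slc7a5 lie farthest to the left, and the red and blue points overlap in most genes.

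Atf4 itself differed little. It had signals of 63.4 and 69.6 in CXCR6+ T cells, 73.7 and 69.6 in CXCR6- T cells and 59.1 in naive T cells, a log2 difference of 0.22 (SE 0.24, adjusted p = 0.516), and its second bright probe set gave -0.82. Ddit3 (CHOP), a factor induced late in ER stress, fell by 1.32 (SE 0.28, adjusted p = 0.0393), with 6.82 and 6.15 in CXCR6+ T cells, 7.16 and 5.63 in CXCR6- T cells and 16.0 in naive T cells, while a dim probe set gave 0.17. Cebpb, a C/EBP factor that pairs with ATF4, rose by 1.64 (SE 0.25, adjusted p = 0.0226), with dim signals of 2.82 and 2.61 in CXCR6+ T cells, 2.73 and 3.15 in CXCR6- T cells and 0.907 in naive T cells. Cebpg had 19.6 and 28.3 in CXCR6+ T cells, 20.1 and 19.3 in CXCR6- T cells and 17.1 in naive T cells, and Atf5 had 2.27 and 1.28 in CXCR6+ T cells, 2.21 and 1.90 in CXCR6- T cells and 3.90 in naive T cells. Their log2 differences of 0.33 (adjusted p = 0.472) and -1.06 (adjusted p = 0.134) did not pass.

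Of the effectors of the stress response, Ppp1r15a (GADD34), which lets the phosphatase PP1 reverse eIF2α phosphorylation, rose by 1.91 (SE 0.39, adjusted p = 0.0363). It had 32.3 and 25.1 in CXCR6+ T cells, 31.7 and 20.02 in CXCR6- T cells and 7.14 in naive T cells. Sesn2, an inhibitor of mTORC1 that senses leucine, had 3.23 and 2.44 in CXCR6+ T cells, 2.26 and 0.857 in CXCR6- T cells and 0.700 in naive T cells, a log2 difference of 1.498 (adjusted p = 0.155), while its other probe set, with a mean signal of 1.16, gave -0.74. Trib3, a pseudokinase, and Chac1, which degrades glutathione, had low signals and differences of 0.84 (adjusted p = 0.0899) and -0.86 (adjusted p = 0.270). Of the 5 genes with a CARE, Slc7a11 rose, Asns fell and 3 did not pass, while 15.1% of all genes rose and 18.8% fell.

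By subset, 10 of the 40 genes rose and 5 fell in CXCR6+ T cells against naive T cells (13.2% and 15.3% of all genes), and 9 rose and 8 fell in CXCR6- T cells (12.8% and 16.7%). These comparisons share the naive array. Ppp1r15a rose in CXCR6+ T cells, with a log2 difference of 2.00, and had 1.82 in CXCR6- T cells, which did not pass. In the same way Pdia3 had -1.19 in CXCR6+ T cells, which did not pass, and -2.55 in CXCR6- T cells, which did. That the subsets differ in these genes was tested in the direct comparison.

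In CXCR6+ against CXCR6- T cells, no gene of the 40 passed with limma, and 0% of all 18193 genes did. At an unadjusted p under 0.05, 2 of the 40 genes were higher and 0 lower, against 6.55% of all genes in either direction, and the methods' t-test gave 6 higher and 0 lower before adjustment, against 7.05% of all genes in either direction, and 0 of the 40 after it, with 1 of all genes. The 2 genes were Pdia3, with a log2 difference of 1.36 (95% interval 0.21 to 2.51, unadjusted p = 0.0313), and Ern1, with 0.90 (95% interval 0.23 to 1.57, unadjusted p = 0.0212). The lowest adjusted p of the 40 genes was 0.685. The intervals are wide, and that of Hspa5, at 0.22, ran between -0.41 and 0.86.

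Both CXCR6+ arrays lay above both CXCR6- arrays in 21 of 22 ER genes, all but Pdia4, and in 4 of 18 amino acid genes (Sesn2, Slc3a2, Trib3 and Shmt2), while 25.1% of all genes did so. In Atf4 alone both CXCR6+ arrays lay below, against 14.3% of all genes, and 39.5% of all genes did not overlap in either direction. The share of genes with CXCR6+ arrays above was larger among bright genes, 36.5% at a mean signal of at least 2 and 43.3% at 10 or more. The median log2 difference was 0.40 in ER genes and 0.02 in amino acid genes, beside 0.08 over all genes. Of 29 other probe sets of ER genes that averaged 1 or more, 26 had a difference above 0, and in 21 both CXCR6+ arrays lay above both CXCR6- arrays. With quantile normalization, which gives all arrays the same distribution, the counts fell to 12 of 22 ER genes and 1 of 18 amino acid genes, against 19.6% of all genes, and the median of ER genes to 0.18. Sesn2 had the largest difference among amino acid genes, 1.01, with a 95% interval between -0.65 and 2.67, and its other probe set gave -0.10.

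**Figure D4:**
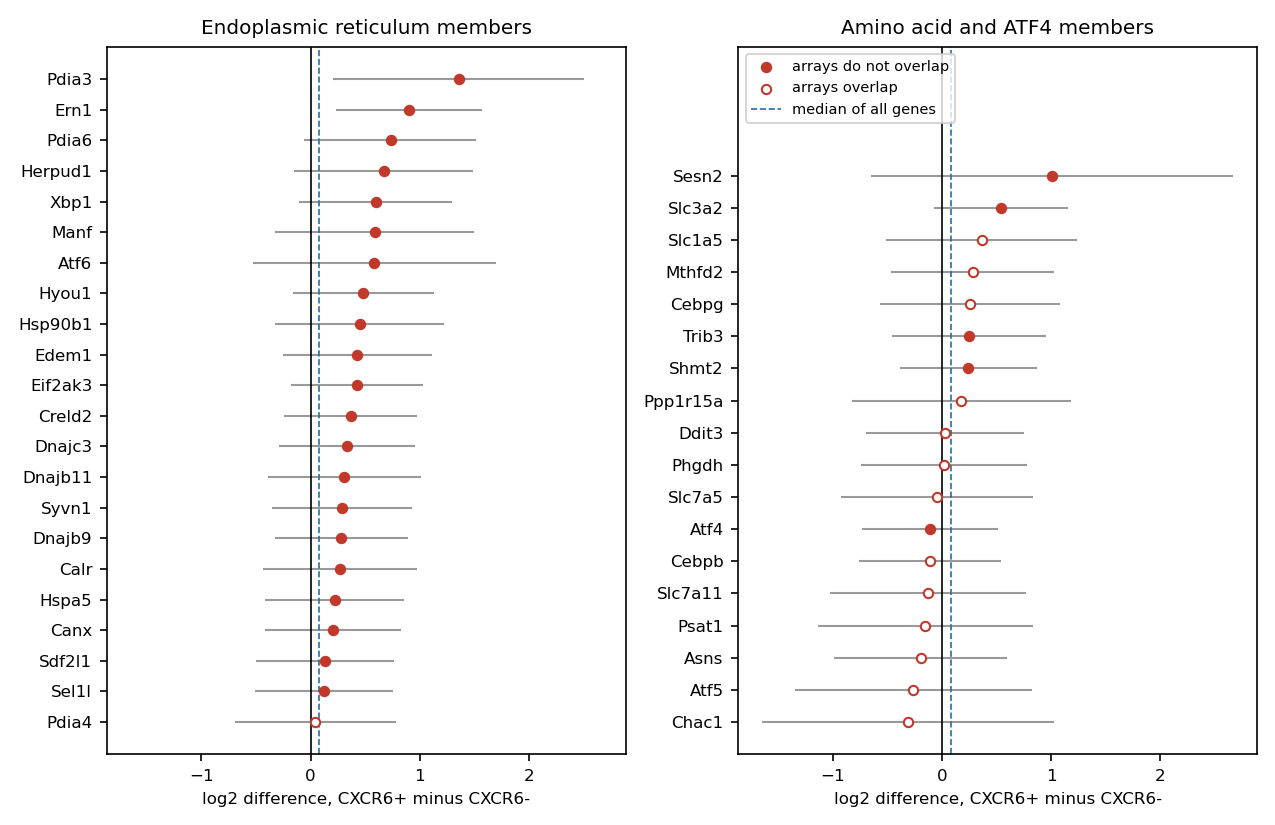
Points are log2 differences of CXCR6+ minus CXCR6- T cells with 95% intervals from limma (horizontal axis), for ER genes on the left and amino acid genes on the right. Filled points mark genes whose arrays do not overlap between the subsets, 21 of 22 and 5 of 18 (4 above and Atf4 below), the dashed line is the median of all genes at 0.08, and the intervals of all genes but Pdia3 and Ern1 cross 0.

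Other measures also differed between the subsets. The ratio of 3′ to 5′ Gapdh signal grows as RNA is degraded or shortened in labelling. It was 2.81 and 3.98 in CXCR6+ T cells, 4.19 and 6.96 in CXCR6- T cells and 1.51 in naive T cells. Signals of Pdia3 decreased in the order in which this ratio rose over all arrays, from 54.5 in naive T cells to 7.58 in CXCR6- replicate 2. Whether the 2 are linked was not tested. Summed signals of 12 T cell markers were 1060 and 1209 in CXCR6+ T cells, 885 and 741 in CXCR6- T cells and 787 in naive T cells, and 8 of the 12 had both CXCR6+ arrays above both CXCR6- arrays. Of 31 other genes of the translocon and of glycosylation, which bring chains into the ER and modify them, 24 did so. So did 17 of 35 other folding genes and 11 of 22 other ERAD genes. The share was 25.1% of all genes and 43.3% of those with a mean signal of at least 10. The part of these measures in the difference was not tested.

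The rest of both pathways was read from 9 lists of 221 other genes, of which 20 rose and 53 fell. Of 35 other folding genes 2 rose and 13 fell (median log2 difference -0.20), with Ppib, a proline isomerase, at 1.52 and Prdx4, an ER peroxiredoxin, at -3.28. Of 22 other ERAD genes 3 rose and 3 fell (median -0.27). Ube2j1, a ubiquitin-conjugating enzyme of the ER membrane, rose by 1.99, Sec61a1 by 1.49 and Derl1 by 1.38, and Nploc4, a cofactor of the p97 ATPase, fell by 3.57. Of 31 translocon and glycosylation genes 2 rose and 2 fell (median 0.11). Of 21 other regulators and outputs of the unfolded protein response 2 rose and 7 fell (median 0.05). The 2 were the BH3-only genes Bcl2l11, which rose by 3.35 with signals of 278 and 262 in CXCR6+ T cells, 219 and 228 in CXCR6- T cells and 24.0 in naive T cells, and Pmaip1, which rose by 2.29. Bak1, an effector of apoptosis, fell by 4.01.

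The lists of amino acid supply had medians below 0. Of 21 other genes of amino acid metabolism 2 rose and 7 fell (median -0.90), with differences from -4.38 to 4.92. Within this range Gclc, which starts glutathione synthesis, had 2.25, and Mthfd1 and Aldh18a1 had -2.28 and -2.25. Of 21 other amino acid transporters 2 rose and 6 fell (median -0.55), and of 20 tRNA synthetases, many of which are ATF4 targets, 0 rose and 3 fell with limma (median -0.62). At an unadjusted p under 0.05, 8 of the 20 passed, against 48.4% of all genes. Of 26 other regulators of the integrated stress response 3 rose and 9 fell (median -0.07), with differences from -3.32 to 5.32. Among them Atf3 rose by 2.72, with 13.4 and 10.1 in CXCR6+ T cells, 14.8 and 11.9 in CXCR6- T cells and 1.89 in naive T cells, and Eif4ebp1 fell by 2.61.

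**Figure D5:**
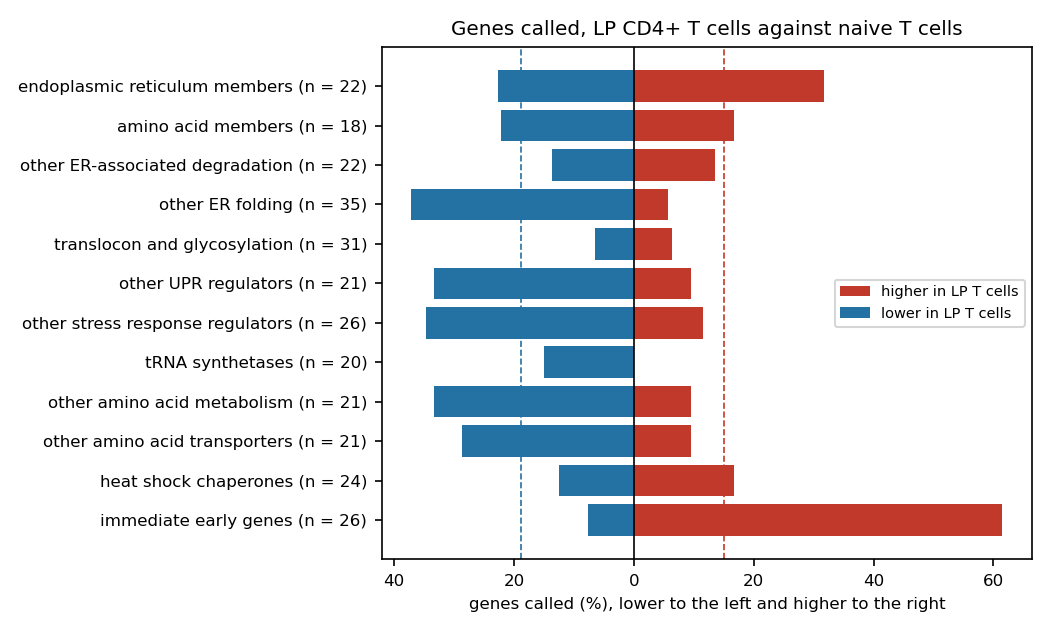
Bars give the percentage of genes in each list that passed in LP T cells relative to naive T cells, higher to the right and lower to the left, with dashed lines at 15.1% and 18.8%, the shares of all genes. On the higher side, the immediate early genes reach 61.5% and the ER genes 31.8%.

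Genes of acute stress also differed between LP and naive T cells. Of 26 immediate early genes, which tissue digestion can induce, 16 rose and 2 fell (median 1.71), with sums of signals between 1521 and 1869 in LP T cells against 669.5 in naive T cells, Nr4a1 at 3.76 and Fosl2 at 3.59. Hspa1a, the inducible cytosolic HSP70, had 215 and 71.3 in CXCR6+ T cells, 276 and 96.2 in CXCR6- T cells and 2.31 in naive T cells. It rose by 5.94 (SE 0.94, adjusted p = 0.0233), and of 24 heat shock genes 4 rose and 3 fell (median 0.57). LP cells were released with enzymes at body temperature and the spleen was disrupted mechanically, so that cell type, tissue and preparation cannot be told apart in any LP against naive value. Of the markers of other cells, plasma cell genes, whose cells have much ER, had summed signals of 80.5 and 6.94 in CXCR6+ T cells, 130 and 11.9 in CXCR6- T cells and 389 in naive T cells, with 0 of 7 genes higher and 4 lower. Ighm had 0.923 to 2.45 in LP T cells and 123 in naive T cells. B cell markers had sums of 8.77 to 11.9 in LP T cells and 77.5 in naive T cells, with 1 of 10 higher and 6 lower. Fibroblast and muscle markers had sums of 108 to 173 in LP T cells and 20.46 in naive T cells, with 8 of 14 higher and 1 lower, and colon epithelium 50.4 to 119 and 131, with 4 of 17 higher and 1 lower. Epithelium sums were 50.4 and 100.4 in CXCR6+ T cells and 53.2 and 119 in CXCR6- T cells, so that replicate 2 was above replicate 1 in both subsets, while the plasma cell sum and Hspa1a were above in replicate 1 of both. The plasma cell sum differed 11.6 times between the CXCR6+ arrays and 10.9 times between the CXCR6- arrays. The part of these cells in the ER values was not tested.

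Facts that bear on all values are these. Across genes, which are not independent replicates, LP arrays correlated with each other at 0.951 to 0.957 and with the naive array at 0.821 to 0.826 (Spearman). The upper quartile of signals was 4.73 to 5.39 in LP and 7.54 in naive samples, so that the arrays were not on 1 distribution. Dap RNA, a control added during preparation, gave 64.6 to 102 in LP and 0.194 in naive samples, and sex-linked Xist gave 181 to 215 and 0.864, so sex and preparation cannot be told apart from the cell type. The T cell marker Cd3e was detected on every array, with 23.2 to 25.1 in LP T cells and 86.1 in naive T cells. The median difference between replicates of the 40 genes was 0.24 in CXCR6+ and 0.20 in CXCR6- T cells on the log2 scale.

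The calls themselves were fragile. Without either CXCR6+ array, only Ern1 among the ER genes and Asns among the amino acid genes passed, and without either CXCR6- array 0 of the 40 genes and 0 of all genes passed. Calls among all genes fell as well in these fits. With the dimmest genes, below the 40th percentile, left out, 15 ER genes rose and 6 fell, against 22.7% and 39.5% of the genes kept. After quantile normalization 11 rose and 1 fell, against 15.4% and 11.9% of all genes. With the replicate number as a block, 4 ER genes rose and 1 fell, 1 amino acid gene rose and 1 fell, and 9.37% of all genes rose and 9.93% fell. Of the 19 genes that passed, Hspa5, Ern1 and Asns had the same call under all 9 alternatives that kept all arrays. The second-brightest probe set of Hspa5 was nonetheless near level, at 0.17. Of 44 other probe sets that averaged 1 or more, 14 pointed the other way, 5 of them in genes that passed.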

How the data were processed

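Total RNA of sorted CD4+ T cells was hybridized to Affymetrix mouse genome arrays after 3′ labelling. As deposited, intensity values are linear and each array's median is 1. The methods say that the authors used GeneSpring, while the submitters' notes name RMA. How background was corrected, or probe sets filtered, is not stated. The number of arrays limits the precision. Groups came from the labels (CXCR6+, n = 2, CXCR6-, n = 2, naive, n = 1).

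Each of 18193 genes was read from its brightest probe set, by mean signal, among those carrying 1 symbol, without a filter on low signals. They were tested as log2 values, with 0.001 in place of the 2 signals of 0, in R 4.3.3 with limma 3.58.1 (moderated linear model over 3 groups, two-sided p-values, Benjamini-Hochberg adjustment across genes, threshold 0.05). The fit had 2 residual and 1.678 prior degrees of freedom and was tested on simulated data. Members and gene lists were chosen with earlier results of these data known, so lists have counts and medians and no test. Values on every array are given for genes that passed, for sensors and transcription factors, for differences of at least 1 between the subsets without overlap, and for genes whose probe sets disagree, plus other genes of a role described. Of each further list at most 3 genes in each direction were named.

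As alternatives, a gene's probe sets were averaged, chosen by mean log2 signal, or limited to those outside the _s_at and _x_at types. Genes below the 40th percentile were left out, arrays were quantile normalized, 1 was added before log2, a robust variance trend or a replicate block was fitted, the methods' t-test was run, and every LP array was left out in turn. Promoters were searched and figures drawn in Python 3.11.15 with matplotlib 3.10.9.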

Additional observations from a re-analysis of the deposited data

Results flagged for a closer look

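Dnajb11, the J-domain co-chaperone ERdj3, lay on opposite sides of the naive array in the 2 subsets. Its signals were 27.6 and 34.2 in CXCR6+ T cells, both above the naive signal of 27.2, and 26.0 and 23.6 in CXCR6- T cells, both below it. The difference between the subsets itself was 0.311 on the log2 scale and did not pass with limma (unadjusted p = 0.278). CXCR6+ replicate 1 lay close to the naive array.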

How the results depend on the processing

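Of the 19 genes that passed in LP against naive T cells, 3 had the same call under all 9 alternatives with every array, while 12 lost it with a replicate block, 10 with the mean of probe sets and 7 with quantile normalization. Pdia4 and Phgdh turned to log2 differences of 0.264 and 0.196 with the mean of probe sets. The cause of the moves below was not tested.

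Against 7 ER genes that rose and 5 that fell in the main fit, the mean of probe sets gave 3 and 2, the 40th percentile filter 15 and 6, quantile normalization 11 and 1, log2 of signal plus 1 gave 15 and 6, the variance trend 15 and 6, and the methods' t-test 6 and 3. Against 3 amino acid genes that rose and 4 that fell, the filter gave 6 and 7 of 17, quantile normalization 3 and 2, log2 of signal plus 1 gave 4 and 7, and the variance trend 4 and 6. All genes called higher and lower were 10.9% and 14.2% with the mean of probe sets, 22.7% and 39.5% with the filter, 15.4% and 11.9% with quantile normalization, 15.5% and 28% with log2 of signal plus 1, 19.5% and 26.1% with the variance trend, and 11.1% and 14.7% with the methods' t-test.

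In CXCR6+ against naive T cells, with 10 higher and 5 lower, the counts were as follows, with the shares of all genes higher and lower. The mean of probe sets gave 4 and 5 (8.87% and 10.6%), the filter 21 and 12 (22.4% and 35.4%), log2 of signal plus 1 gave 21 and 12 (14.6% and 25.4%), quantile normalization 14 and 2 (12.6% and 9.48%), and the variance trend 20 and 11 (18.4% and 23.4%). In CXCR6- against naive T cells, with 9 higher and 8 lower, these were 3 and 5 (8.64% and 11.7%), 13 and 11 (20% and 39.1%), 13 and 11 (13.1% and 27.2%), 11 and 1 (13% and 9.86%), and 15 and 12 (17.4% and 25.4%). The methods' t-test gave 0 and 0 in each. Unadjusted, it gave 11 and 2 in CXCR6+ T cells, against 17.5% of all genes in either direction, and 5 and 4 in CXCR6- T cells, against 20.1%.

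The replicate block gave 4 ER genes higher and 1 lower, 1 amino acid gene higher and 1 lower, against 9.37% and 9.93% of all genes, and 0 of the 40 and of all genes in each subset against naive T cells with limma (42.1% and 42.5% of all genes at an unadjusted p under 0.05). The labels call the replicates biological. Whether arrays of the same number in the 2 subsets share mice or a preparation is not given in the sources used here. With 2 pairs it cannot be settled whether the numbers pair the arrays. The differences between replicates 1 and 2 in CXCR6+ and in CXCR6- T cells correlated at 0.0193 over all genes, 0.221 over genes with a mean signal of 2 or more and 0.35 at 10 or more, and marker sums of plasma cells and epithelium split by number in both subsets. With each LP array left out in turn, which leaves 1 array in a subset, most calls in LP against naive T cells were lost. This held among the 40 genes and among all genes, and all calls in each subset against naive T cells were lost. Between the subsets 0 of the 40 genes passed in every setting.

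The median log2 difference of ER genes in LP T cells, 0.973, became 0.722 with the mean of probe sets. It was 1.456 with quantile normalization and 0.890 to 1.023 with an array left out. The median of amino acid genes in LP T cells, 0.041, became 0.288 with the mean of probe sets. It was 0.375 with quantile normalization and -0.068 to 0.15 with an array left out. Between the subsets, the median of ER genes, 0.397, became 0.177 with quantile normalization and 0.317 to 0.452 with an array left out. That of amino acid genes, 0.023, became -0.051 with the mean of probe sets, -0.094 with quantile normalization and 0.050 to 0.124 with an array left out. The counts of genes with both CXCR6+ arrays above both CXCR6- arrays, taken up after the data were seen, were 19 to 21 ER genes and 3 to 4 amino acid genes, but 12 and 1 with quantile normalization.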
